A study of Rattus norvegicus with 10 samples.

Results

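AMPA receptors, which carry most fast excitatory signalling in the brain, and kainate receptors are ion channels. Their pore-forming subunits are encoded by 9 genes, Gria1 to Gria4 for AMPA receptors and Grik1 to Grik5 for kainate receptors, and all 9 were found by symbol among the 17168 gene symbols of the deposited tables. They were compared between the left hippocampi of 5 untreated and 5 RG2833-fed female rats. All 10 rats were TgF344-AD animals of 11 months, a transgenic line, with its transgenes under the mouse prion promoter, that is used as a model of Alzheimer's disease. The untreated group ate ordinary rodent chow. The RG2833 group ate chow with 750 mg of RG2833, an inhibitor of the histone deacetylases HDAC1 and HDAC3, per kg from 5 months of age, for 6 months. Both groups carry the transgenes, so the comparison is drug against no drug within the disease model. Wild-type rats and males are not analysed here.

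Each receptor is a tetramer. GluA2, the product of Gria2, sets the calcium permeability of AMPA receptors, since adenosine-to-inosine editing of its transcript changes a residue in the pore. In the hippocampus the AMPA receptors of pyramidal cells are built mainly of GluA1, GluA2 and GluA3, and GluA4 is prominent in interneurons. Among kainate receptors, GluK1 to GluK3 can form channels alone, whereas GluK4 and GluK5, the high-affinity subunits, need one of the former as partner. Grik4 is enriched in CA3 pyramidal cells, where mossy fibres end, and Grik1 in interneurons.

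Levels below are the authors' TMM-scaled CPM, read counts divided by library size after a correction that assumes most genes do not change. They are not divided by transcript length, so levels of different genes are not ranked against each other. Total estimated counts ran from 8764270 to 11311700 per library, rounded to 6 digits. Ribosomal RNA loci took 2.70% to 5.36% of the counts in untreated and 1.13% to 1.96% in RG2833 libraries, so that share and the treatment cannot be told apart. Untreated replicate 1 held 2455 CPM in 6 choroid plexus markers, against at most 44.7 CPM in the other libraries. On principal component 1 of the tested genes, untreated replicate 4 took a place within the RG2833 group (11.5, against 9.18 to 25.3 in RG2833 and -27.8 to -13.8 in the other untreated animals).

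None of the 9 subunit genes passed the test for a difference between the groups (edgeR quasi-likelihood test, Benjamini-Hochberg adjusted p under 0.05 over 11791 genes), while 5.08% of all tested genes did. At an unadjusted p under 0.05 the count was 1 of 9, Grik5, where 24.5% of all tested genes passed. DESeq2's Wald test also called 1, Grik5 (11% of all tested genes by that test). Estimated log2 fold changes were positive for 6 subunits and negative for 3, with a median of 0.15 (-0.0035 over all tested genes). Of all tested genes 2.41% were called higher and 2.67% lower, against none of the 9 in either direction. In 1 of the 9, Grik5, the values of the groups did not overlap, where 7.2% of all tested genes showed such a separation (3.67% with RG2833 higher, as for Grik5, and 3.53% with RG2833 lower).

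**Figure D1:**
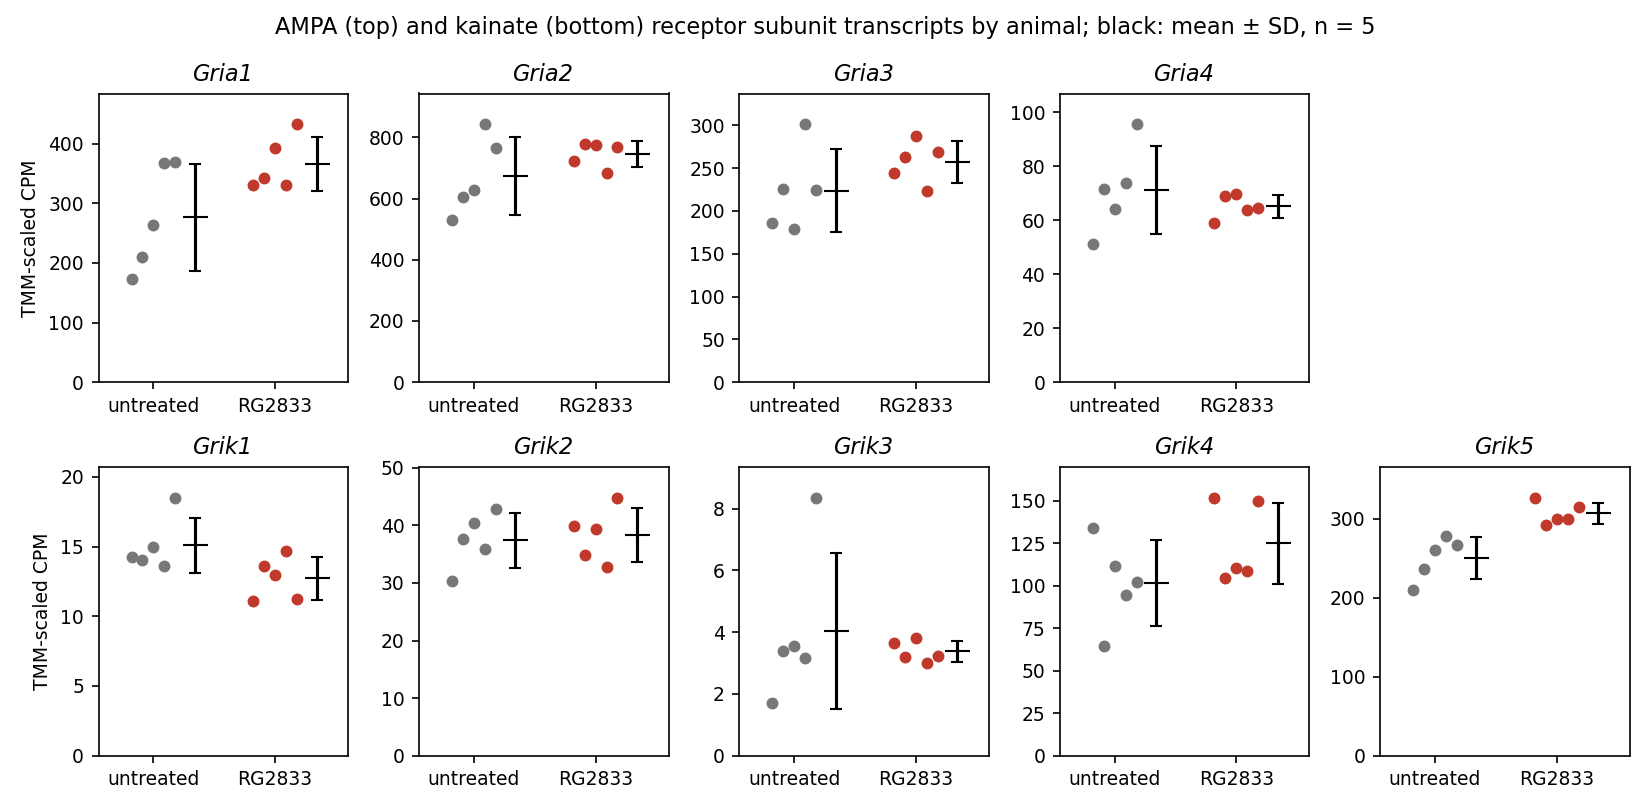
TMM-scaled CPM (vertical axes, from 0) of the 4 AMPA (top) and 5 kainate (bottom) subunit genes in each untreated (grey) and RG2833 (red) animal, drawn from left to right by replicate number, with mean ± SD in black (n = 5). Only in the Grik5 panel do the 5 RG2833 values, 291.4 to 326 CPM, all lie above the untreated values, 210.1 to 278 CPM.

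Gria1 encodes GluA1, the subunit most closely tied to activity-dependent insertion of receptors at synapses. Its level was 173, 209.8, 263, 368 and 369 CPM in untreated replicates 1 to 5, and 331, 342, 393, 331 and 432 CPM in RG2833 replicates 1 to 5. Replicates 1, 2 and 3 of the untreated group lay below every RG2833 animal, and replicates 4 and 5 lay inside the RG2833 range. Untreated animals averaged 277 ± 89.8 CPM and RG2833 animals 366 ± 45.0 CPM (SD, n = 5). The log2 fold change was 0.41 ± 0.19 (SE; 95% interval -0.0050 to 0.82; edgeR adjusted p = 0.2097). Without untreated replicate 4 the fold change was 0.53 ± 0.18 and without untreated replicate 1 it was 0.28 ± 0.16, and neither passed (edgeR adjusted p = 0.0768 and 0.343). A model that held the share of ribosomal RNA turned its sign, to -0.095 ± 0.35 (SE), and did the same for Gria2 (-0.080 ± 0.22) and Gria3 (-0.11 ± 0.24).

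Gria2 stood at 529, 606, 629, 842 and 764 CPM in untreated replicates 1 to 5. In RG2833 replicates 1 to 5 it stood at 723, 777, 775, 683 and 769 CPM. The RG2833 animals sat in a narrow band inside the untreated range, with a coefficient of variation of 5.53%, against 18.8% in untreated animals. The log2 fold change was 0.15 ± 0.11 (SE; 95% interval -0.10 to 0.40; edgeR adjusted p = 0.452). It was 0.074 ± 0.10 without untreated replicate 1, the lowest animal, and 0.24 ± 0.10 without untreated replicate 4, the highest (edgeR adjusted p = 0.717 and 0.137).

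Gria3, the partner of GluA2 in a second class of AMPA receptors, ranged over 178.9 to 301 CPM without the drug and 223 to 288 CPM with it. Its log2 fold change was 0.21 ± 0.13 (SE; 95% interval -0.076 to 0.49; edgeR adjusted p = 0.348). Here too untreated replicate 4 was the highest of all animals. Without it the log2 fold change was 0.34 ± 0.10 (edgeR adjusted p = 0.0458), past the threshold in a fit that called 13.1% of all tested genes. Without untreated replicate 3, the lowest, it was 0.13 ± 0.13 (edgeR adjusted p = 0.600).

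Gria4 was the AMPA subunit with a negative estimate. It measured 51.1, 71.7, 64.1, 73.6 and 95.5 CPM in untreated replicates 1 to 5, and 59.0, 68.9, 69.6, 63.8 and 64.4 CPM in RG2833 replicates 1 to 5. All RG2833 values lay within the untreated range, and the log2 fold change of -0.13 ± 0.13 (SE; 95% interval -0.41 to 0.16) did not pass (edgeR adjusted p = 0.587). The estimate rested on untreated replicate 5, since without that animal it was 0.0019. That animal also had the highest summed level of 8 interneuron markers (Gad1, Gad2, Slc32a1, Pvalb, Sst, Vip, Lhx6 and Npy), 856 CPM, where the rest of its group had 481 to 732 CPM. The summed level ran from 491 to 666 CPM in RG2833 animals, 0 of the 8 markers was called, and the part of these cells in the Gria4 values was not tested. In such bulk tissue, fewer cells of a type and less RNA per cell cannot be told apart.

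Among the kainate subunits that form channels alone, Grik2 (GluK2, the main partner of the high-affinity subunits in pyramidal cells) averaged 37.4 ± 4.76 CPM without and 38.3 ± 4.71 CPM with the drug (SD, n = 5). Its log2 fold change was 0.035 ± 0.11 (SE; 95% interval -0.20 to 0.27; edgeR adjusted p = 0.874), so a change of more than 0.27 in either direction lay outside the interval. Grik1 ranged over 13.6 to 18.5 CPM without and 11.1 to 14.7 CPM with the drug, and 3 of the 5 RG2833 animals lay below the lowest untreated animal. Its log2 fold change was -0.24 ± 0.12 (SE; 95% interval -0.50 to 0.017; edgeR adjusted p = 0.233), and -0.16 ± 0.11 without untreated replicate 5, the highest animal (edgeR adjusted p = 0.372).

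Grik3 gave few reads, 15 to 79 per library in untreated and 29 to 38 in RG2833 animals. Its level was 1.71, 3.39, 3.54, 3.17 and 8.35 CPM in untreated replicates 1 to 5, and 3.64, 3.21, 3.81, 2.99 and 3.22 CPM in RG2833 replicates 1 to 5. A single animal, untreated replicate 5, set the direction of the estimate. The log2 fold change was -0.25 ± 0.33 (SE; edgeR adjusted p = 0.671) with it and 0.19 ± 0.22 (edgeR adjusted p = 0.618) without it. The 95% interval of -0.96 to 0.46 is the widest of the 9.

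The high-affinity subunits had positive estimates. Grik5 (GluK5) was at 210.1, 236, 260.3, 278 and 266 CPM in untreated replicates 1 to 5 and at 326, 291.4, 299.96, 300.1 and 315 CPM in RG2833 replicates 1 to 5. The groups did not overlap. Untreated replicate 4 was the untreated animal nearest to the RG2833 group. Untreated animals averaged 250.1 ± 27.1 CPM and RG2833 animals 306 ± 13.9 CPM (SD, n = 5). The log2 fold change was 0.30 ± 0.081 (SE; 95% interval 0.12 to 0.47), with an edgeR adjusted p of 0.0546, just above the threshold. Grik5 passed without untreated replicate 4 (edgeR adjusted p = 0.0205, where 13.1% of all tested genes passed) and without untreated replicate 5 (edgeR adjusted p = 0.0438, with 7.61% of all tested genes), and in no other fit that left out 1 animal. With the ribosomal RNA share in the model the log2 fold change was 0.27 ± 0.16 (SE; edgeR adjusted p = 0.9999).

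Grik4 (GluK4) was at 134, 64.7, 112, 94.7 and 102 CPM in untreated replicates 1 to 5 and at 152, 104, 110.4, 109 and 149.8 CPM in RG2833 replicates 1 to 5. RG2833 replicates 1 and 5 lay above all untreated animals and untreated replicate 2 below all others. The log2 fold change was 0.30 ± 0.17 (SE; 95% interval -0.071 to 0.68; edgeR adjusted p = 0.299). Without untreated replicate 2 it was 0.18 ± 0.14 (edgeR adjusted p = 0.493), and 0.040 ± 0.34 once the model held the share of ribosomal RNA. Of the CA3 markers Bok, Pvrl3 (nectin 3), Cpne7 and Elavl2, 0 of 4 was called. Their estimates went both ways, with a median log2 fold change of 0.075, from -1.11 ± 0.36 for Cpne7 to 0.55 ± 0.23 for Bok (SE; edgeR adjusted p = 0.0898 and 0.166). Summed, they came to 277 to 718 CPM without and 270.1 to 423 CPM with the drug, a sum in which Cpne7 had the highest mean (306 ± 156 and 142 ± 50.5 CPM, SD, n = 5), and their part in the Grik4 values was not tested.

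**Figure D2:**
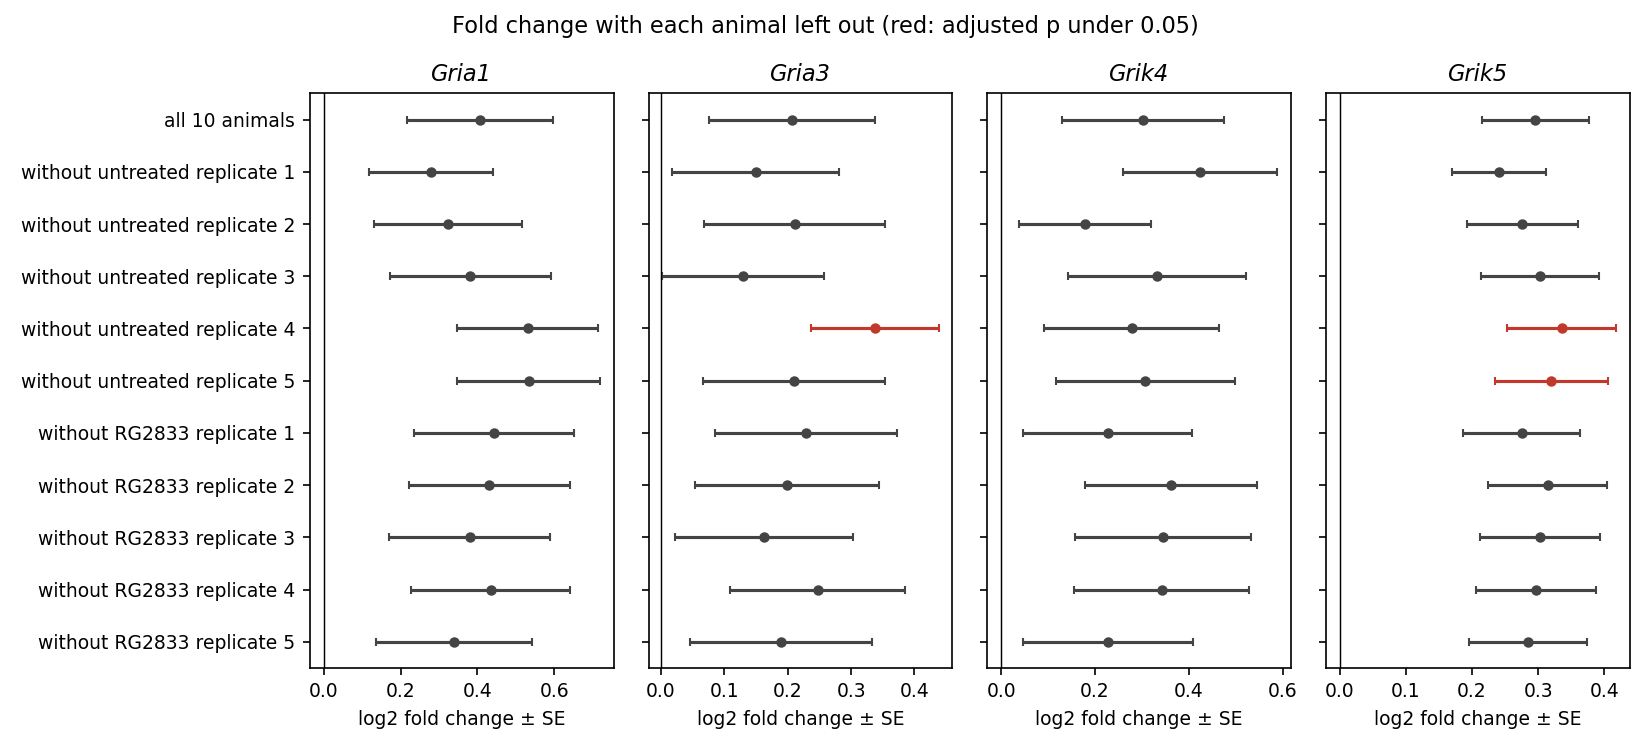
Log2 fold change ± SE (horizontal axes) of Gria1, Gria3, Grik4 and Grik5 with all 10 animals (top row) and with each animal left out in turn, red where the edgeR adjusted p was under 0.05. All estimates shown are above 0, and 3 of them are red, Gria3 and Grik5 without untreated replicate 4 and Grik5 without untreated replicate 5.

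The spread between animals differed by gene. In untreated animals the coefficient of variation was 32.5% for Gria1, 21.7% for Gria3, 22.8% for Gria4 and 10.8% for Grik5, and in RG2833 animals it was 12.3%, 9.59%, 6.62% and 4.52%. For Grik1 and Grik2 the coefficients were alike in both groups, 13.1% and 12.7% in untreated and 12.1% and 12.3% in RG2833 animals. For Grik3 they were 62.5% and 10.1%, for Grik4 24.9% and 18.9%, and for Gria2 18.8% and 5.53%. Over all genes with enough counts, pairs of untreated libraries differed more than pairs of RG2833 libraries (chi-square per degree of freedom 16.3 to 36.3 and 4.60 to 10.2). A wider spread in untreated animals was thus not particular to the subunit genes. These spreads are descriptions of 5 animals each and were not compared by a test.

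A ratio of 2 subunits within a library needs no scaling factor, so 7 ratios of counts were compared, each AMPA subunit over Gria2 and each kainate subunit over Grik2 (log2, with 0.5 counts added to each gene). By two-sided exact permutation tests, an unadjusted p under 0.05 was found for 3 of the 7, and for 0 once adjusted over the 7 by Benjamini-Hochberg (smallest adjusted p = 0.0926). These were 2 of the 3 ratios to Gria2 and 1 of the 4 to Grik2. Of all tested genes set over Gria2 by the same test, 12.2% had an unadjusted p under 0.05 (2.99% higher and 9.18% lower), and over Grik2 9.8% did (4.81% higher and 4.99% lower). The smallest p this design allows is 0.00794.

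Gria1 gave 0.327, 0.346, 0.419, 0.437 and 0.483 counts per count of Gria2 in untreated replicates 1 to 5. The same ratio was 0.458, 0.4402, 0.506, 0.484 and 0.562 in RG2833 replicates 1 to 5. Only untreated replicate 5 lay inside the RG2833 range. The log2 ratio was 0.30 ± 0.12 higher in RG2833 animals (SE; exact permutation p = 0.0397, adjusted p = 0.0926).

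For Gria4 over Gria2 the estimate had the opposite sign, with 0.0874 to 0.125 counts per count of Gria2 in untreated and 0.0816 to 0.0934 in RG2833 animals. Untreated replicate 4, at 0.0874, was the untreated animal inside the RG2833 range. The difference in log2 ratio was -0.27 ± 0.10 (SE; exact permutation p = 0.0317, adjusted p = 0.0926). Estimated counts of Gria1, Gria2, Gria3 and Gria4 were not whole numbers (to within 1e-09) in 1, 9, 10 and 10 of the 10 libraries, as happens when the counting software shares reads between genes, so their ratios carry that uncertainty.

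Grik5 gave 6.90, 6.25, 6.44, 7.74 and 6.20 counts per count of Grik2 in untreated replicates 1 to 5. In RG2833 replicates 1 to 5 the ratio was 8.17, 8.35, 7.61, 9.16 and 7.03. The log2 ratio was 0.27 ± 0.088 higher in RG2833 animals (SE; exact permutation p = 0.0238, adjusted p = 0.0926), with untreated replicate 4 inside the RG2833 range. The ratio of Grik4 to Grik2 ran from 1.72 to 4.398 in untreated and from 2.80 to 3.80 in RG2833 animals, a log2 difference of 0.29 ± 0.23 (SE; exact permutation p = 0.262, adjusted p = 0.367). For Gria3 over Gria2, Grik1 over Grik2 and Grik3 over Grik2 the log2 differences were 0.060, -0.28 and -0.10, with SEs of 0.085, 0.17 and 0.29 (exact permutation p = 0.476, 0.159 and 0.833).

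**Figure D3:**
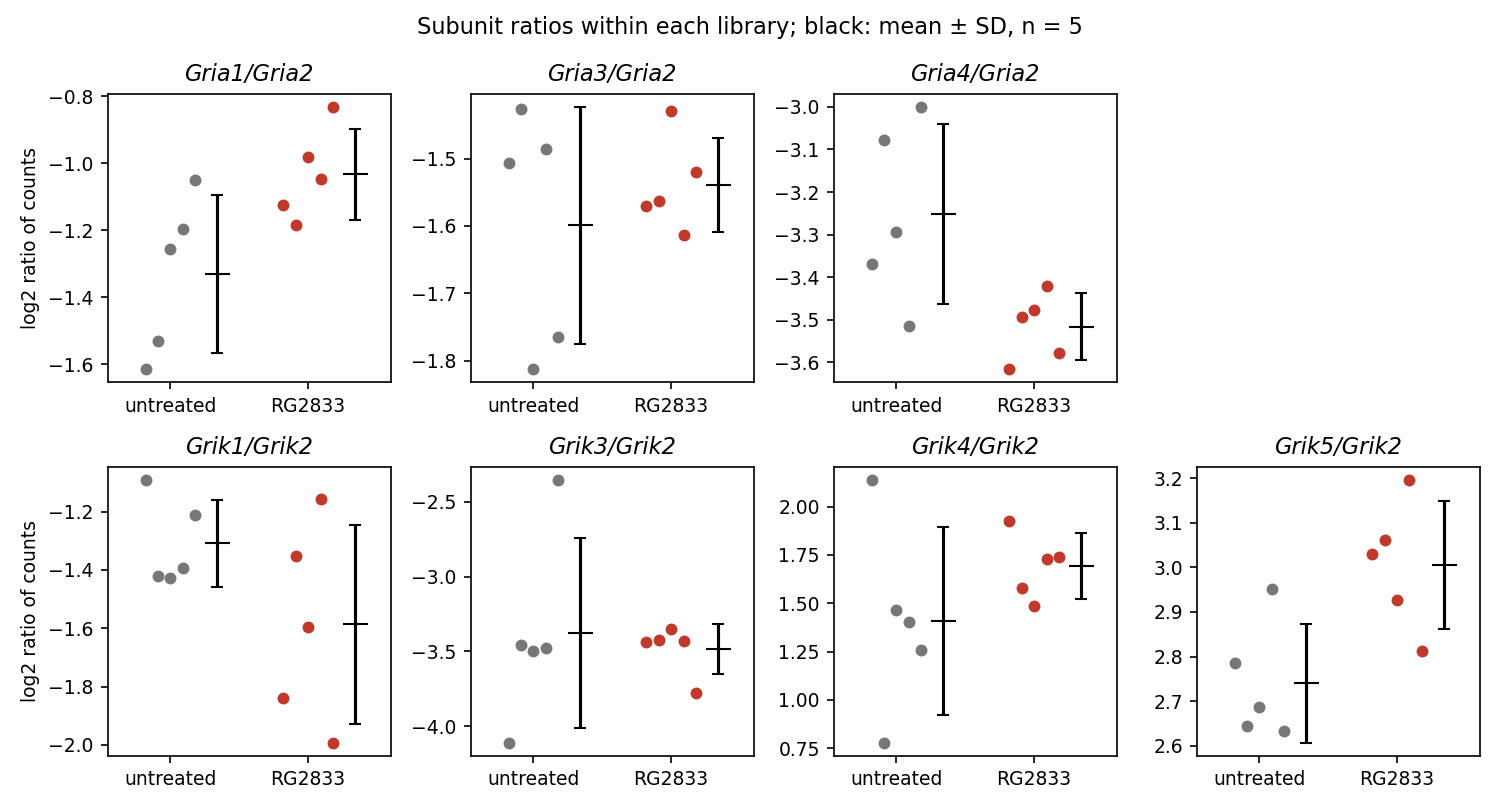
Log2 ratio of counts (vertical axes, which do not start at 0) of each AMPA subunit over Gria2 (top) and each kainate subunit over Grik2 (bottom) in each untreated (grey) and RG2833 (red) animal, with mean ± SD in black (n = 5). Gria1/Gria2 and Grik5/Grik2 sit higher and Gria4/Gria2 lower in most RG2833 animals, and the groups overlap in all 7 panels.

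The promoters of Grik5, the member with separate groups, and of its partner Grik2 are shown for comparison. RefSeq's promoter table for the GRCr8 build held 6 of the 9 genes (Gria4 and Grik1 to Grik5), and the 250 bases before the start are printed 5′ to 3′ on the strand of the gene. Both genes lie on the minus strand, Grik5 at chr1:89794910-89795159 and Grik2 at chr20:54415284-54415533. Capitals mark matches on either strand to the GC box GGGCGG, bound by Sp1, the core TGACG of the cAMP response element, bound by CREB, and the AP-1 site TGANTCA.
Grik5: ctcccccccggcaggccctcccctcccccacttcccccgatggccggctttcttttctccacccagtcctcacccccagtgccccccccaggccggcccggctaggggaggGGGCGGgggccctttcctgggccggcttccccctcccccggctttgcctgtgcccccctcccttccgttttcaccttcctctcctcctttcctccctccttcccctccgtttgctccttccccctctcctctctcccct
Grik2: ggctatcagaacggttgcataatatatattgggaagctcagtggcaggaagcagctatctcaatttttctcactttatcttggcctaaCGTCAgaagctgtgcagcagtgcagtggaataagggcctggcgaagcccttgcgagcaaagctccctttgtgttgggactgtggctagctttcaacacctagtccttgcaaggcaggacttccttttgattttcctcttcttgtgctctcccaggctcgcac
The Grik5 window is 70.8% G and C and holds 1 GC box, at position -139 from the start site, and no match to the other motifs. The Grik2 window is 49.6% G and C and holds 1 cAMP response element core, on the opposite strand. Of 33469 windows of the same length, 30.5% hold a GC box, 18.2% the core TGACG and 6.34% the AP-1 site, and the median G and C content is 51.2%. Grik3 holds 5 GC boxes in a window of 81.6% G and C, while Gria4, Grik1 and Grik4 hold no match to any of the 3 motifs. These are matches of letters only.

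AMPA receptors work with auxiliary subunits that govern their trafficking and gating. Of 14 such genes listed, 12 were in the tables and tested, and 5 of the 12 rose in RG2833 animals (2.41% of all tested genes were called higher) with none called lower. The median log2 fold change over the 12 was 0.54, and 11 estimates were positive. In 6 of the 12 all RG2833 values lay above all untreated values, where 3.67% of all tested genes did. The 5 were Cacng2, Cacng7, Prrt1, Cnih2 and Cacng5. This list and those below were chosen with earlier results of these data known. Setting them beside the shares of all genes is therefore no independent comparison.

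**Figure D4:**
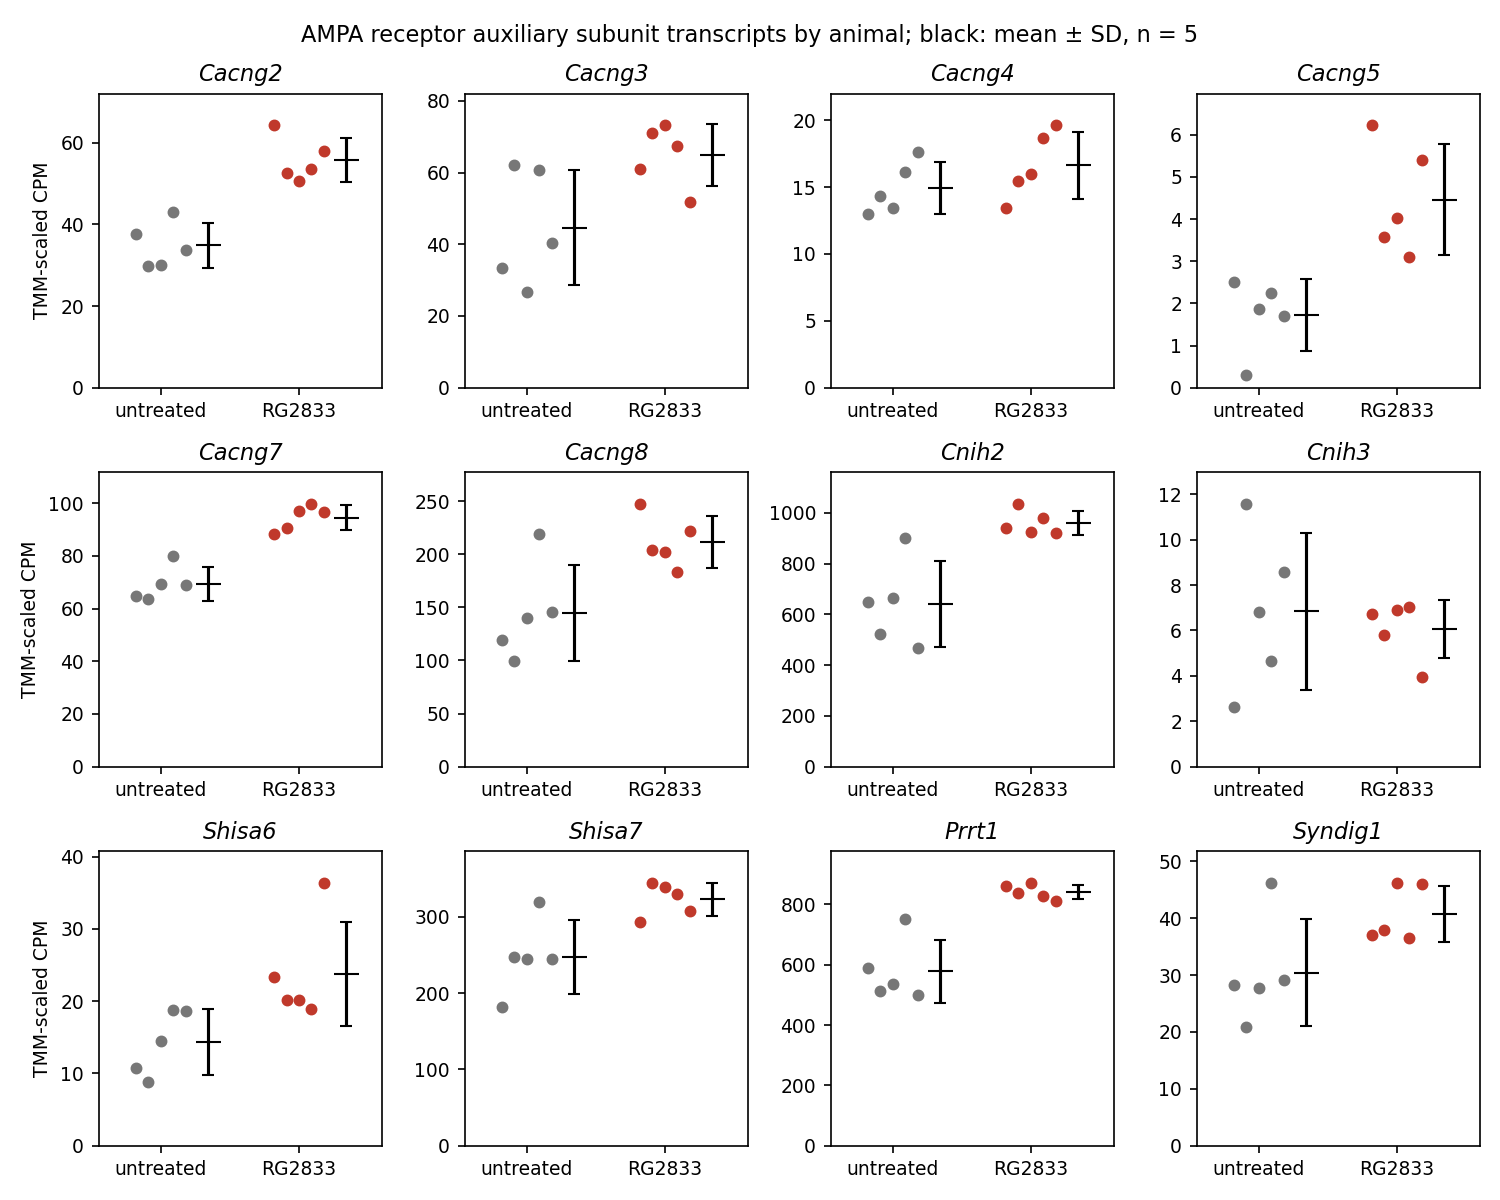
TMM-scaled CPM (vertical axes, from 0) of the 12 tested AMPA auxiliary subunit genes in each untreated (grey) and RG2833 (red) animal, with mean ± SD in black (n = 5). Cacng2, Cacng5, Cacng7, Cnih2, Shisa6 and Prrt1 show no overlap between the groups, and untreated replicate 4 is the highest untreated animal for Cacng2, Cacng7, Cacng8, Cnih2, Shisa6, Shisa7, Prrt1 and Syndig1.

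Cacng2 encodes stargazin, the founding transmembrane AMPA receptor regulatory protein (TARP). It was at 37.6, 29.9, 30.1, 43.1 and 33.8 CPM in untreated replicates 1 to 5 and at 64.4, 52.5, 50.6, 53.7 and 57.9 CPM in RG2833 replicates 1 to 5. Every RG2833 animal was above every untreated animal, and the log2 fold change was 0.68 ± 0.11 (SE; edgeR adjusted p = 0.00932). Cacng7, another member of the TARP family, rose from 69.2 to 94.4 CPM on average, with ranges of 63.5 to 79.9 CPM and 88.3 to 99.7 CPM. On the log2 scale its change was 0.45 ± 0.074 (SE; edgeR adjusted p = 0.0110). Cacng2 and Cacng7 passed whichever of the 10 animals was left out.

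Prrt1 (SynDIG4), which helps to hold a pool of AMPA receptors outside the synapse, ran from 499 to 752 CPM without and from 813 to 871 CPM with the drug (log2 fold change 0.54 ± 0.11, SE; edgeR adjusted p = 0.0183). Cnih2, a cornichon protein that escorts AMPA receptors from the endoplasmic reticulum and slows their closing, ran from 468 to 901 CPM and from 921 to 1035 CPM (0.59 ± 0.15; edgeR adjusted p = 0.0406). Cacng5, named here after its values were seen, was scarce, at 0.299 to 2.50 CPM without and 3.10 to 6.23 CPM with the drug (1.38 ± 0.36; edgeR adjusted p = 0.0488). Cacng5 and Cnih2 passed in 2 of the 10 fits that left out 1 animal and Prrt1 in 5. Cacng8, the main TARP of hippocampal pyramidal cells, had a log2 fold change of 0.55 ± 0.17 (SE) and did not pass (edgeR adjusted p = 0.0791). It was called without untreated replicate 4 and by DESeq2's Wald test.

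The number of auxiliary genes called depended on single libraries. It was 10 without untreated replicate 4 (13.1% of all tested genes), 4 without untreated replicate 2 or 5 (2.37% and 7.61%), 3 without untreated replicate 1 or RG2833 replicate 4 (1.63% and 1.8%), and 2 without untreated replicate 3 (0.954%) or RG2833 replicate 1, 2, 3 or 5 (1.1%, 0.945%, 0.995% and 0.826%). Once the model held the share of ribosomal RNA it was 0, in a fit that called 2 genes in all. Of 8 pan-neuronal markers 1 was called higher, Rbfox3 (2.41% of all tested genes), with 3 higher at an unadjusted p under 0.05 (11.8% of all tested genes), a median log2 fold change of 0.20 over the 8 and a summed level of 6339 to 9125 CPM without and 8621 to 10383 CPM with the drug. Of 9 markers of pyramidal and granule neurons 8 were tested and 0 was called, with 3 higher at an unadjusted p under 0.05, a median of 0.52 and sums of 4360 to 6628 CPM and 6074 to 7048 CPM. The ninth, Spink8, was at most 0.186 CPM in any library. In 1 of the 8, Slc17a7, all RG2833 values lay above all untreated values, where 3.67% of all tested genes did. It had 1263 to 1806 CPM without and 1901 to 2356 CPM with the drug (edgeR adjusted p = 0.0689). None of the pan-neuronal markers was separate. Of 5 markers of endothelium and pericytes 0 was called, all 5 estimates were negative (median -0.26, with 2 at an unadjusted p under 0.05, where 12.7% of all tested genes were lower at that level), and their sums were 204 to 295 CPM without and 189.3 to 208 CPM with the drug. Of 5 microglial markers 1 was called lower, Aif1 (-0.74 ± 0.196 on the log2 scale, SE; edgeR adjusted p = 0.0496), where 2.67% of all tested genes were, and the sums were 226 to 325 CPM and 207 to 271 CPM. Aif1 values overlapped between the groups (21.4 to 49.1 CPM without and 20.2 to 22.9 CPM with the drug). Over the 5 the median log2 fold change was -0.11, with 4 estimates negative and 1 positive. The part of these cell types in the auxiliary results was not tested.

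Auxiliary genes were set against the pore-forming Gria2 with the ratio of each of the 12 to Gria2, a comparison chosen after the values were seen. The estimate was above 0 for 10 of the 12 ratios, where 24.3% of all tested genes over Gria2 were, and 44.4% of those over Grik2. By two-sided exact permutation tests 8 of the 12 were higher at an unadjusted p under 0.05, where 2.99% of all tested genes over Gria2 were. For Cacng2 the log2 ratio was 0.52 ± 0.14 higher (SE; exact permutation p = 0.0238), for Cnih2 0.46 ± 0.18 (exact permutation p = 0.0238) and for Cacng8 0.43 ± 0.13 (exact permutation p = 0.0159). The groups were separate for Shisa6 over Gria2 (0.58 ± 0.21, exact permutation p = 0.00794, the smallest possible) and overlapped for the other 11. The remaining ratios at that level were those of Cacng5, Cacng7, Shisa7 and Prrt1. For Cacng4 and Cnih3 the log2 differences were -0.011 ± 0.13 and -0.19 ± 0.40 (SE).

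Other genes of the receptor pathway were described by the same counts. Of 5 tested genes of AMPA receptor assembly in the endoplasmic reticulum, 1 was called higher (2.41% of all tested genes were), namely Porcn (0.31 ± 0.080 on the log2 scale, SE; edgeR adjusted p = 0.0449), which passed in 1 of the 10 fits that left out 1 animal. Its groups did not overlap, at 84.7 to 105 CPM without and 106 to 132 CPM with the drug (3.67% of all tested genes were separate and higher). Sacm1l of the same list, named after its values were seen, had 50.6 to 57.3 CPM without and 43.4 to 47.5 CPM with the drug. It too was without overlap (3.53% of all tested genes were separate and lower). Its log2 fold change of -0.22 ± 0.062 (SE) did not pass (edgeR adjusted p = 0.0572). Of 7 auxiliary and synaptic partners of kainate and AMPA receptors, all 7 estimates were positive (median 0.46) and 1 was called higher, beside the same 2.41% of all tested genes. This was Nptx1, a neuronal pentraxin that clusters AMPA receptors from outside the cell, at 786 to 1235 CPM without and 1429.6 to 1922 CPM with the drug (0.54 ± 0.13, SE; edgeR adjusted p = 0.0386), called in 3 of the 10 fits. The kainate receptor auxiliary genes Neto1 and Neto2 stood at 0.21 ± 0.23 and 0.23 ± 0.17 on the same scale (SE; edgeR adjusted p = 0.613 and 0.438). C1ql2, another of the 7, was also listed as a marker of dentate granule cells. The 3 tested dentate markers, C1ql2 included, had positive estimates (median 0.51, 0 called). Their sums were 63.6 to 234 CPM without and 160.4 to 256 CPM with the drug. Of 4 CA1 markers 3 estimates were positive and 0 was called, with sums of 314 to 1247 CPM and 373 to 1390 CPM. The part of these cells in the results was not tested.

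Of 10 genes of trafficking and anchoring, 1 was called, and it fell (2.67% of all tested genes were called lower). Sdcbp (syntenin), a PDZ-domain protein made in many cell types, had 382 to 464 CPM without and 316 to 377 CPM with the drug (-0.31 ± 0.079 on the log2 scale, SE; edgeR adjusted p = 0.0435), and passed in 2 of the 10 fits that left out 1 animal. Over 21 alternative fits, those 10 included, its log2 fold change ran from -0.35 to -0.076, and 12 did not call it. The scaffold genes Grip1, Grip2 and Pick1, whose products bind GluA2, had log2 fold changes of -0.046 ± 0.13, -0.051 ± 0.15 and -0.074 ± 0.080 (SE). Of the 3 adenosine deaminase genes tested, 0 was called. Adarb1, which encodes the enzyme that edits the Gria2 transcript, had 188.5 to 231 CPM without and 212 to 305 CPM with the drug (0.31 ± 0.10, SE; edgeR adjusted p = 0.0836). It passed without untreated replicate 4 (0.37, edgeR adjusted p = 0.0308, with 13.1% of all tested genes) and by DESeq2's Wald test (adjusted p = 0.0377, with 11%). Only these 2 of 21 alternative fits called it. Over the 21 its log2 fold change ran from 0.049 to 0.37, and from 0.23 to 0.37 with 1 animal left out. The editing itself is not measured by gene counts. Of the 3 delta receptor genes 0 was called, and Grid1 had the smallest p (0.16 ± 0.093, SE; edgeR adjusted p = 0.316).

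**Figure D5:**
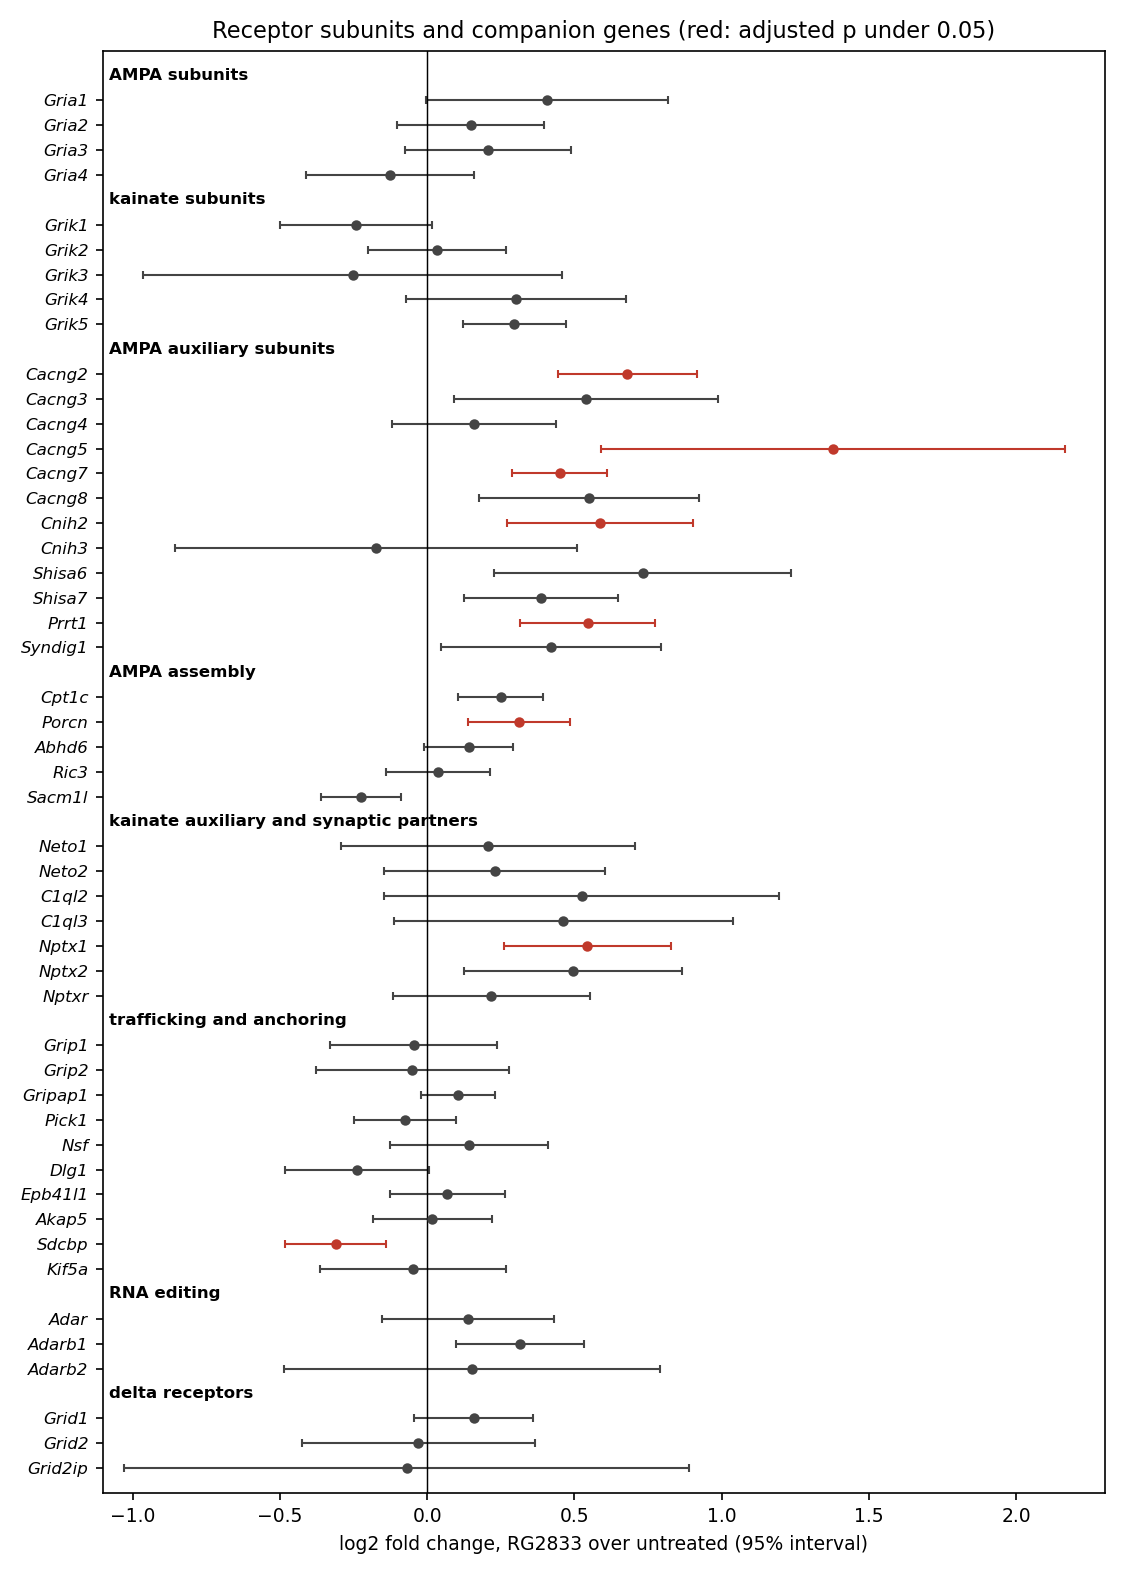
Log2 fold change of RG2833 over untreated animals (horizontal axis) with its 95% interval for the 9 subunit genes and the tested companion genes, grouped by role, red where the edgeR adjusted p was under 0.05. No subunit gene is red, 5 of 12 AMPA auxiliary genes are red to the right of 0, and Sdcbp at -0.31 is the red point to the left.

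The genes whose levels followed Gria1 most closely over the 10 animals were Fam49a, Grm5 (a metabotropic glutamate receptor) and Extl3, with root mean square differences of 0.091, 0.105 and 0.108 in centred log2 CPM, where Gria1 itself varied by 0.40. For Grik5 they were Atg9a, Sept3 (a septin) and RGD1562407, at 0.056, 0.059 and 0.061, where Grik5 varied by 0.18. These were the closest of 7602 genes with a mean log2 CPM of at least 4, and the likeness is a description over these libraries.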

How the data were processed

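The members and gene lists were chosen with earlier results of these data known. Per the submitters' processing notes, bcl2fastq 2.17, Bowtie2 2.1.0, RSEM 1.2.15 and edgeR were used with the rn6 build; their order and settings are not given in the sources used here. The authors deposited estimated counts (RSEM expected counts, unnormalized) and a normalized signal, TMM-scaled CPM, 1 column per animal. Per the labels, libraries were strand-specific mRNA libraries.

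Expected counts were rounded. Genes passing filterByExpr by group were tested with edgeR 4.0.16 (R 4.3.3, quasi-likelihood, TMM, without covariates), with adjustment by Benjamini-Hochberg over all genes tested. The SE is the log2 fold change over the square root of F. Ratios were compared by exact permutation tests over all assignments of the animals. Printed levels are the deposited signal. No transcript length was used, so the planned levels per length were not computed. Named companion genes are those called (at most 4 per list) or the one with the smallest p. Cacng5, Cacng8, the other auxiliary genes over Gria2, Sacm1l, Neto1, Neto2, C1ql2, Grip1, Grip2 and Pick1 lie outside that rule and were named after their values were seen. The genes most like Gria1 and Grik5 are the 3 with the smallest root mean square difference. Alternatives used DESeq2 1.42.0, limma 3.58.1, other scalings and filters, covariates, a replicate block and leaving out each animal. The fitting code was tested on simulated data. Within-group pairs of libraries differed by more than sampling noise (chi-square per degree of freedom 16.3 to 36.3 for untreated and 4.60 to 10.2 for RG2833 pairs). Labels name the animals but no litter or library batch.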

Additional observations from a re-analysis of the deposited data

Results flagged for a closer look

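In groups of 5 animals, a value was singled out where its gap to the nearest other value exceeded 0.71 of the group's range (Dixon's 95% limit). This held in 9 of 136 groups, where chance gives about 6.8. Untreated replicate 5 was high for Grik1 (18.5 CPM, the rest of the group 13.6 to 14.99 CPM) and for Grik3 (8.35 CPM against 1.71 to 3.54 CPM). In that animal the sums of interneuron and of oligodendrocyte precursor markers, 856 and 204 CPM, were also the highest of the untreated group; their part in these values was not tested. RG2833 replicate 5 had a low log2 ratio of Grik3 to Grik2 (-3.78 against -3.44 to -3.35) and a high Shisa6 level (36.4 CPM against 18.9 to 23.4 CPM). Nptx1 was low in untreated replicate 2 (786 CPM against 1154 to 1235 CPM), and Adarb1 was high in untreated replicate 4 (231 CPM against 188.5 to 198 CPM). C1ql3 was low in RG2833 replicate 4 (91.1 CPM against 112 to 119 CPM). Grid2ip was high in untreated replicate 1 (8.31 CPM against 1.49 to 3.26 CPM) and in RG2833 replicate 3 (7.01 CPM against 1.96 to 3.10 CPM).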

How the results depend on the processing

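The count of subunit genes called, 0 of 9, was 1 with DESeq2's Wald test and 1 at an adjusted p under 0.1 (Grik5 in both; 12.4% of all tested genes at the latter), and ran from 0 to 2 when 1 animal was left out. It was 0 under the other scalings, filters, limma fits, covariates and the replicate block. With a ribosomal RNA covariate, the log2 fold changes of Gria1, Gria2 and Gria3 turned to -0.095, -0.080 and -0.11, and with the choroid plexus score that of Grik2 to -0.0087. Leaving out 1 animal, estimates ran from -0.22 to 0.0019 for Gria4, from -0.029 to 0.088 for Grik2 and from -0.44 to 0.19 for Grik3. The auxiliary gene count of 5 was 8 with DESeq2's Wald test, 3 with the choroid plexus covariate, 0 with the ribosomal RNA covariate and 2 to 10 with 1 animal left out. Over all genes, 599 were called, against 1295 with DESeq2's Wald test, 180 with the replicate block, 241 with the choroid plexus covariate and 2 with the ribosomal RNA covariate. The share of calls that were higher was 47.4%, against 38.3% with library totals as the only scaling, 38.9% with the replicate block, 53.6% with limma-voom and 51.6% with limma trend. Grik3 had no value at a mean count of at least 50. The cause of these changes was not tested.

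Deviations of same-numbered animals from their group means had a mean correlation of -0.066 over all genes (-0.32 to 0.15). Correlations over all genes cannot exclude a pairing that matters for single genes. With the replicate block 0 subunit and 3 auxiliary genes were called. The SE fell from 0.19 to 0.15 for Gria1 and from 0.17 to 0.11 for Grik4 (edgeR adjusted p = 0.121 and 0.132). For Grik5 it rose from 0.081 to 0.089 (edgeR adjusted p = 0.105). Exchanging labels only within same-numbered pairs, the log2 ratios of Gria1 to Gria2 (0.30), Gria4 to Gria2 (-0.27) and Grik5 to Grik2 (0.27) had exact permutation p-values of 0.0625, 0.125 and 0.0625, where 0.0625 is the smallest 5 pairs allow. Without 1 animal, the log2 differences ran from 0.22 to 0.36 for Gria1/Gria2, -0.33 to -0.20 for Gria4/Gria2, -0.39 to -0.18 for Grik1/Grik2, -0.29 to 0.15 for Grik3/Grik2 and 0.13 to 0.47 for Grik4/Grik2, and for the auxiliary ratios from -0.087 to 0.052 for Cacng4/Gria2 and from -0.41 to 0.070 for Cnih3/Gria2. The unadjusted p under 0.05 was lost for Gria1/Gria2 without untreated replicate 1, 2 or 3 or RG2833 replicate 3, 4 or 5 (exact permutation p from 0.0556 to 0.103), for Gria4/Gria2 without untreated replicate 5 or RG2833 replicate 1, 2, 3 or 5 (exact permutation p from 0.0556 to 0.0794) and for Cnih2/Gria2 without RG2833 replicate 1, 2 or 4 (exact permutation p from 0.0635 to 0.0714). For Grik5/Grik2 it was kept whichever animal was left out. It was gained for Grik4/Grik2 without untreated replicate 1 (exact permutation p = 0.00794), Grik1/Grik2 without RG2833 replicate 4 (0.0397), Cacng3/Gria2 without untreated replicate 2 (0.0238) and Syndig1/Gria2 without untreated replicate 1 or 4 (0.0476 and 0.0397). Replicates are separate animals by their labels, and intervals of the low counts of Grik3 limit what could be seen.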
